A study of Mus musculus with 86 samples.

Results

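PU.1 peaks shared only by large and small peritoneal macrophages were the entries of the PU.1 list of large peritoneal macrophages (LPM) that overlapped an entry of small peritoneal macrophages (SPM) by at least 1 bp. They overlapped none of the lists of microglia, bone marrow-derived macrophages (BMDM) or thioglycollate-elicited macrophages (TGEM). There were 6410 such peaks among the 65261 entries of the LPM list, or 9.82%, and they overlapped 7.15% of the SPM list. The choice used the presence of an entry in these 5 lists, so presence in them is a description and was not tested. All 5 lists came from C57BL6/J cells labelled as given no treatment, with 1 PU.1 library per population. LPM, SPM and microglia were sorted cells, BMDM were grown from bone marrow in conditioned medium as a source of M-CSF, and TGEM were drawn from the peritoneum after thioglycollate. LPM and microglia of NOD/ShiLtJ and SPRET/EiJ mice had 1 library per assay. C57BL6/J LPM were also kept for 7 days in M-CSF or IL-34 at 4 ng/ml. To these cultures all-trans retinoic acid (ATRA) at 2 µM, DMSO, TGFB1 at 1 ng/ml or the vehicle of TGFB1 was added. The 13 ChIP-seq libraries of PU.1, 13 of H3K27ac and 13 of H3K4me2 stood beside 26 RNA-seq libraries.

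PU.1, the product of Spi1, is an ETS-family transcription factor that every macrophage makes, and it opens and marks enhancers together with factors that differ between tissues. H3K4me2 marks promoters and enhancers in general, and H3K27ac marks those that are active. In LPM, retinoic acid made in the peritoneum and the omentum maintains Gata6, a zinc-finger factor on which the identity of these cells depends. SPM arise largely from monocytes and carry MHC class II.

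Few of the peaks lay where a reference sequence was at hand. Of the 32817 RefSeq promoter windows of 300 bases, 155 held the centre of a shared peak. Outside a chromosome left out of this count, which is named under the processing, 62 peaks lay wholly inside a window. Of these 62, 14 held the letters GGAAGT and 5 held a PU.1 motif of 8 letters, on either strand. The bases of 5 peaks that lie upstream of the start are printed from the RefSeq build GRCm38.p6, on the strand of the gene, with each AGGAA on either strand in capitals. The coordinates are those of the printed bases. Vsig4, Cd209b and Gm1966 are shown as the 3 largest rises in the peritoneal cells among genes whose window holds any of the 62 peaks. The peak 0.158 kb from the start of C4b is not wholly inside a window. Cd209d and Retreg1 are shown because they held AGGAAGT and were also listed as PU.1 entries in NOD/ShiLtJ LPM. These 5 were chosen after their values were seen.
Vsig4 (chrX:96293509-96293687, minus strand): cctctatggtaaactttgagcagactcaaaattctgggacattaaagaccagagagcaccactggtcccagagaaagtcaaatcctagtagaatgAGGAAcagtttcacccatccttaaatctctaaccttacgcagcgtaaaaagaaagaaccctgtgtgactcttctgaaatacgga
Cd209b (chr8:3926842-3926985, minus strand): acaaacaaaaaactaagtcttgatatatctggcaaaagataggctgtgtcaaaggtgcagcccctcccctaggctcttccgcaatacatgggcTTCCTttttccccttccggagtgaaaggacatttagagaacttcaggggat
Gm1966 (chr7:106644646-106644815, minus strand): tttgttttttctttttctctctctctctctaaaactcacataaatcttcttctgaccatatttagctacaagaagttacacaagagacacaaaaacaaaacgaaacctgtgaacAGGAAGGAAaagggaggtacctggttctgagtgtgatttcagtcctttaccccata
Cd209d (chr8:3878500-3878667, minus strand): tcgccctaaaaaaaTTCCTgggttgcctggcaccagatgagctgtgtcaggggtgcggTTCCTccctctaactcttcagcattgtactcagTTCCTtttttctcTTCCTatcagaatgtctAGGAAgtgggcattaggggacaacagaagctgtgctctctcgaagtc
Retreg1 (chr15:25933404-25933551, plus strand): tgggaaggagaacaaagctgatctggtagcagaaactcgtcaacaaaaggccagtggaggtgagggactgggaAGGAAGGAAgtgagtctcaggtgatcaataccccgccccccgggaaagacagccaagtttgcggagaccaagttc

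The Vsig4 peak was listed in LPM of all 3 strains and lay in an H3K27ac region of LPM in each. Vsig4 encodes the complement receptor CRIg of resident macrophages. The Cd209b and Cd209d peaks lay in no H3K27ac region of C57BL6/J LPM or SPM. Cd209d stood at 2.00 and 0.512 scaled reads in LPM, 3.465 and 7.05 in SPM and 0 in the other 6 libraries. The Cd209 genes encode C-type lectins in a cluster of similar copies, so their reads are uncertain. Retreg1, an endoplasmic reticulum receptor of autophagy, is listed in the expression tables as Fam134b, a RefSeq synonym. Fam134b stood at 279.8 and 547.3 in LPM, 602.9 and 534.8 in SPM and 895.8 to 3785 in the other 6 libraries, without overlap. It was lower in LPM and SPM, with a log2 fold of -1.75 ± 0.26 (SE, limma adjusted p = 0.0011). Its peak lay in H3K27ac regions of LPM, SPM and TGEM.

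Promoter windows with a shared peak held GGAAGT, the letters about the ETS core, in 32.3% of cases. The share was 52.5% of windows with any LPM entry, 63.8% of those with an entry listed in all 5 populations and 23.8% of all windows. The shorter letters AGGAA were in 69.7% of shared-peak windows, against 73.8%, 77.9% and 66.7%. Either of the PU.1 motifs GAGGAAGT and AGGAAGTG, which overlap each other and GGAAGT, was in 9.68% of shared-peak windows and 14.7%, 20.8% and 5.66% of the others. In the same order of windows, the KLF letters CACACCC were in 14.2%, 8.00%, 7.35% and 7.95%, and the AP-1 letters TGANTCA in 11.0%, 5.39%, 5.35% and 7.81%. The E-box letters CAGCTG were in 21.9%, 14.1%, 14.1% and 16.3%. The GATA letters GATAA were in 25.8%, 16.5%, 15.7% and 25.4%. RUNX letters were in 15.5%, 13.8%, 13.6% and 16.8%, and MEF2 letters in 2.58%, 2.52%, 2.40% and 3.69%. C/EBP letters TTGCNNAA were in 11.6%, 9.44%, 8.81% and 10.8%, and TTGCNTCA in 6.45%, 3.66%, 3.42% and 3.70%. IRF letters were in 5.81%, 3.83%, 3.58% and 3.43%, and MiT letters in 3.87%, 3.68%, 4.29% and 2.24%. NF-kB letters were in 0.645%, 0.590%, 0.669% and 0.411%. Median GC content was 56.7% in shared-peak windows, 59.3% with any LPM entry, 59.7% with a common entry and 52.7% in all windows. Direct repeats of the nuclear receptor half-site spaced by 1, 2, 4 or 5 bases were in 0 of the 155 windows and in at most 13 of all 32817. GGAAGT and AGGAA were added after seeing the data. Both strands were searched, and a match describes letters only.

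The peaks had low deposited scores. The authors' score ranks the entries of 1 list and is not comparable between lists. It had a median of 15.0 for shared peaks in LPM with quartiles of 10.2 and 23.3. It was 23.0 over all LPM entries, 10.9 for the 6978 entries listed in LPM alone and 50.7 for the 22693 entries listed in all 5 populations. Of 5 equal groups of the LPM list by score, from the weakest to the strongest, the shared peaks numbered 2099, 1872, 1430, 811 and 198. In the SPM list their median score was 17.8. Across the 6410 peaks, Spearman's rho between LPM and SPM score was 0.54, with the region in common. The overlap with the SPM entry had a median of 158 bp. It was under 20 bp in 21 peaks, whose median LPM score was 15.3, while 38 shared LPM and SPM entries were left out through an overlap under 20 bp with one of the other 3 populations and had a median of 18.6. Another population had an entry within 100 bp of 184 peaks and within 500 bp of 908.

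The peak with the highest score, 229.8, lay on an unplaced contig at chrUn_JH584304:38696-38874 (mm10) and overlapped no other list of strain, culture or histone mark. The next was chr14:27178289-27178467, with a score of 182.0, inside Arhgef3, which encodes a RhoA exchange factor. It was listed in LPM of both other strains and in every M-CSF culture list, and it lay in H3K27ac regions of LPM, SPM and BMDM in C57BL6/J. Of the 15 peaks with the highest scores, 2 had as nearest gene Efnb2, which encodes the membrane ligand ephrin-B2. They lay 161 and 57.6 kb downstream of its start, at chr8:8499473-8499651 with a score of 180.6 and chr8:8603090-8603268 with 121.8. Of these 15 peaks, 14 were listed in NOD/ShiLtJ LPM, 8 in SPRET/EiJ LPM and 11 in the ATRA culture. Regions with H3K27ac covered 11 of the 15 in LPM, 11 in SPM, 5 in BMDM, 5 in TGEM and 1 in microglia.

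The shared peaks were distal. Their centres lay a median of 28.7 kb from the nearest listed transcript start, with quartiles of 7.83 and 76.6 kb, against 15.6 kb for all LPM entries and 12.7 kb for entries in all 5 populations. Within 250 bp of a start lay 2.81% of shared peaks, 5439 or 8.33% of all LPM entries and 2732 of the entries in all 5 populations. Beyond 100 kb lay 19.0% of shared peaks, 10.8% of all LPM entries and 7.85% of entries in all 5 populations. The entries of LPM alone lay at a median of 17.3 kb. From the weakest to the strongest of 5 equal groups by score, the median distance of shared peaks was 28.1, 29.2, 26.9, 29.3 and 32.2 kb, while the share within 1 kb of a start went from 10.5% to 2.53%. Listed transcripts covered 50.2% of shared peaks and 53.7% of all LPM entries. Members are regions and not replicates, so these shares carry no test.

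**Figure D1:**
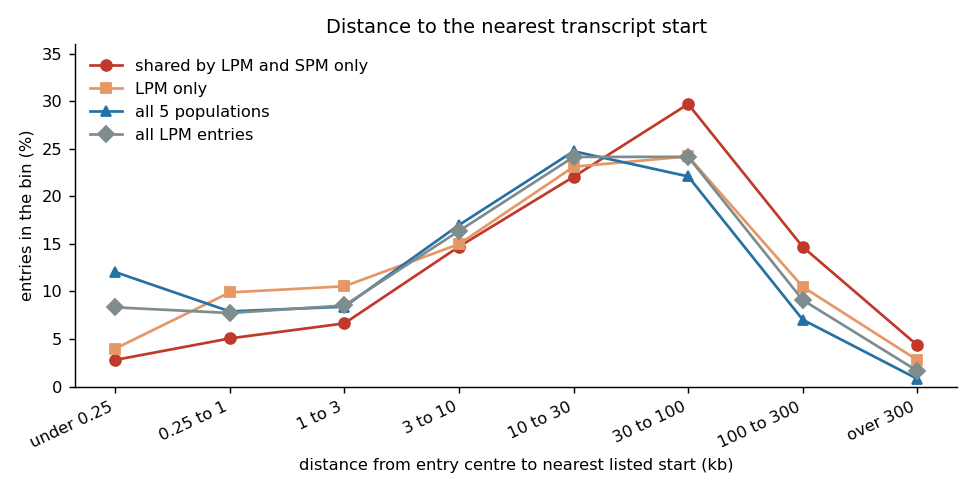
Share of PU.1 entries of the LPM list (y axis, percent) by distance of the entry's centre from the nearest listed transcript start (x axis, kb). Points stand for the shared peaks and the comparison sets. The shared peaks lie lowest within 0.25 kb, at 2.81%, and above the other sets in each bin beyond 30 kb.

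The histone marks of LPM covered a minority of the peaks. H3K27ac regions of LPM overlapped 1762 of the 6410, or 27.5% (95% Wilson interval 26.4 to 28.6, which covers counting error only), and those of SPM overlapped 1853, or 28.9%. Among all LPM entries the shares were 40.1% and 45.1%. Regions of microglia overlapped 313 of the 6410 shared peaks and 11718 of the 65261 LPM entries. Regions of BMDM and TGEM overlapped 12.8% and 17.8% of the shared peaks, against 39.2% and 47.5% of all LPM entries. Both LPM and SPM regions covered 1299 shared peaks, and 552 of these, 8.61% of all shared peaks, lay in no H3K27ac region of the other 3 populations. That pattern was found in 3.75% of all LPM entries, 5.30% of entries in LPM alone and 2.31% of entries in all 5 populations. H3K4me2 of LPM covered 2675 shared peaks, or 41.7%, and 3343 had neither mark in LPM, which is 52.2% against 38.6% of all LPM entries. Neither mark in LPM was over 47.3% of entries in LPM alone and 29.3% of entries in all 5 populations. In none of the 5 populations was either mark over 2389 shared peaks, or 37.3%, against 17.7% of all LPM entries. Here entries in LPM alone reached 33.7% and entries in all 5 populations 8.18%.

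**Figure D2:**
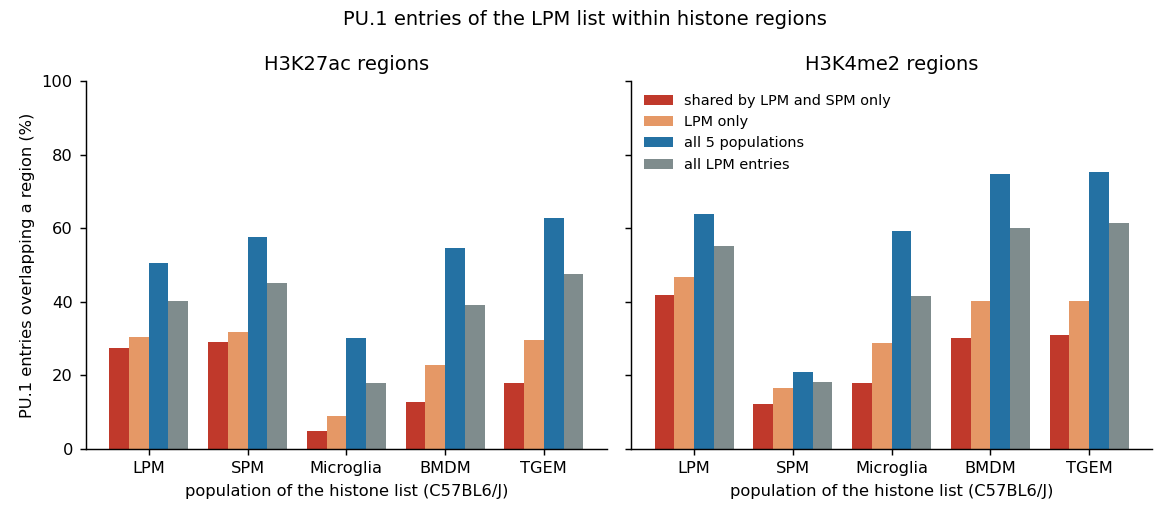
Share of PU.1 entries of the LPM list (y axis, percent) that overlap an H3K27ac (left) or H3K4me2 (right) region of each population (x axis), with 1 list per population. Bars stand for shared peaks and comparison sets, and the shared peaks fall from 27.5% in LPM and 28.9% in SPM to 4.88% in microglia for H3K27ac.

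The histone lists are not equal. The SPM list of H3K4me2 overlapped 18.2% of all LPM entries and 12.2% of shared peaks, while the LPM list overlapped 55.0% and 41.7%. Per the labels, H3K27ac of BMDM and TGEM was precipitated with an Abcam antibody and of the other populations with one from Active Motif. In the other strains, H3K27ac of LPM covered 16.2% of shared peaks in NOD/ShiLtJ and 21.0% in SPRET/EiJ, against 22.5% and 35.1% of all LPM entries. LPM regions of all 3 strains covered 554 shared peaks, or 8.64%, and 16.2% of all LPM entries. Microglia of the same strains gave 4.34% and 3.54% of shared peaks, against 13.1% and 12.9% of all LPM entries. The H3K27ac list of the ATRA culture covered 279 shared peaks and that of the DMSO culture 102, from lists of 6011 and 3963 regions. These were 4.35% and 1.59% of the shared peaks, against 9.78% and 5.38% of all LPM entries. The lists of the TGFB1 and vehicle cultures, with regions of 156 and 159 bp each, covered 46 and 68 shared peaks, or 0.718% and 1.06%, against 2.15% and 2.72% of all LPM entries.

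More of the peaks were listed in LPM of the other strains than in their microglia. The rule had left out entries of C57BL6/J microglia, so a low share in microglia follows in part from the choice. In NOD/ShiLtJ, 1898 of 6410 were listed in LPM, or 29.6%, and 117 in microglia, or 1.83%. In SPRET/EiJ, a wild-derived strain of Mus spretus, 795 were listed in LPM, or 12.4%, and 154 in microglia, or 2.40%. Both strains listed 435 in LPM. Among all LPM entries, 43.9% recurred in NOD/ShiLtJ LPM and 30.2% in SPRET/EiJ LPM, and 19.7% and 18.3% in the microglia of these strains. The microglial lists were shorter, with 18633 and 19832 entries against 36125 and 27633 of LPM. Microglia of NOD/ShiLtJ or SPRET/EiJ listed 3.88% of shared peaks and 27.2% of all LPM entries. Entries of LPM alone, also chosen to be absent from C57BL6/J microglia, reached 3.68%.

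Recurrence rose with the score of the entry. From the weakest to the strongest of the 5 score groups, NOD/ShiLtJ LPM listed 9.62%, 22.3%, 40.6%, 64.2% and 89.4% of the shared peaks. For all LPM entries these shares were 9.28%, 21.1%, 37.8%, 62.0% and 89.2%, so shared peaks lay within 3 percentage points of entries of like score. In SPRET/EiJ LPM the shares of shared peaks were 4.81%, 8.97%, 15.6%, 27.1% and 41.9%. All LPM entries reached 5.91%, 11.8%, 21.6%, 40.0% and 71.5% there, more than the shared peaks in each of the 5 groups. Entries of LPM alone had 44.1% in the strongest group, from 15 of 34 entries. Shared peaks in an LPM H3K27ac region recurred in NOD/ShiLtJ in 45.2% of cases and in SPRET/EiJ in 19.7%, and those outside in 23.7% and 9.64%, but their median scores were 21.5 and 13.1.

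**Figure D3:**
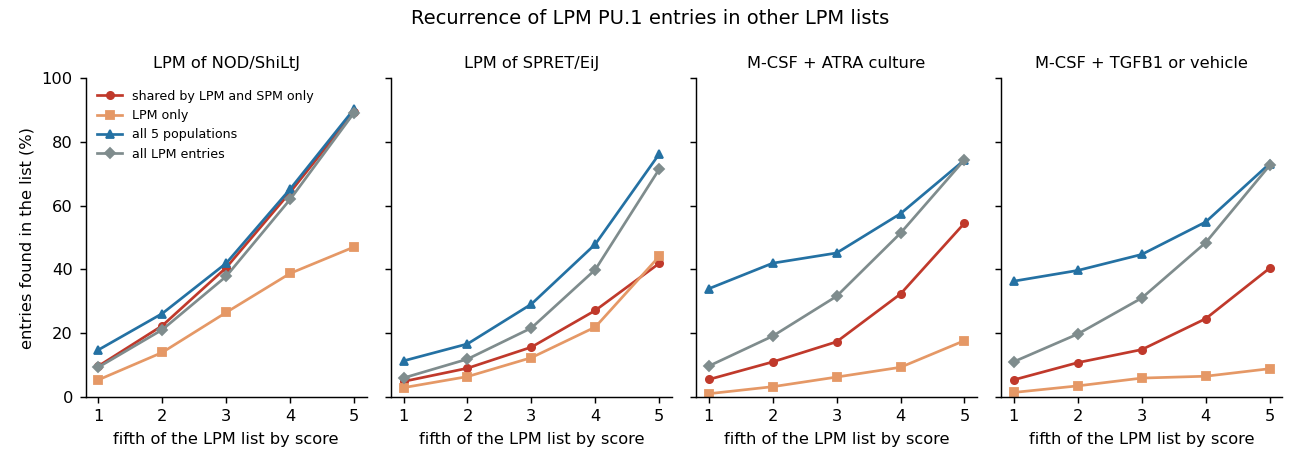
Share of PU.1 entries (y axis, percent) found in each of 4 other LPM lists, by 5 equal groups of the C57BL6/J LPM list from the lowest to the highest score (x axis). Lines stand for shared peaks and comparison sets. In NOD/ShiLtJ the shared peaks lie within 3 percentage points of all entries, and in SPRET/EiJ and the cultures they lie below all entries.

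In culture 1335 of the peaks, or 20.8%, were listed under at least 1 M-CSF condition. The ATRA culture listed 936, or 14.6%, and the DMSO culture 77, or 1.20%, from 28624 and 9645 entries. Of the 936, 890 were not in the DMSO list, a shorter list that held no score under 47.7. Such peaks made up 13.9% of the shared peaks and 24.5% of all LPM entries. The lists labelled TGFB1 and its vehicle were identical, entry for entry, and were read as 1 list of 30259 entries. It held 804 shared peaks, or 12.5%, so TGFB1 could not be compared with its vehicle. Among all LPM entries the ATRA, DMSO and TGFB1 lists held 37.2%, 13.4% and 36.6%, and among entries of LPM alone 2.78%, 0.43% and 2.84%. Over the same 5 groups the ATRA culture listed 5.43%, 11.0%, 17.3%, 32.3% and 54.5% of shared peaks and 9.64%, 19.1%, 31.6%, 51.4% and 74.4% of all entries. A total of 3513 shared peaks, or 54.8%, were in no strain or culture list, against 33.4% of all LPM entries. The share was 80.1% of entries of LPM alone and 9.36% of entries in all 5 populations. These totals were not matched on score. With 1 library per condition, these differences have no replicate check.

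The peaks were nearest to 4087 genes. Of these, 2865 had 1 peak, 727 had 2 and 495 had 3 or more, and the last held 2091 of the peaks. Ltbp1 and Plxdc2 had 15 each. Cdh6, Rarb and Ryr2 had 14, Mctp2 and Pde10a 13, 2010106C02Rik and Efnb2 12, and Spred2 11. Expression was tested with limma on log2(value + 1), where the value is reads scaled by the authors to 10000000 mapped reads, counted over the span of the transcript (over exons in the culture table). LPM and SPM were set against microglia, BMDM and TGEM in 10 C57BL6/J libraries, 2 per population, 1 in each of 2 deposited tables. A gene was called at an adjusted p under 0.05 and a fold of at least 2.

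The sorted SPM libraries carried LPM markers. The 6 LPM markers, Gata6, Timd4, Alox15, Vsig4, Icam2 and F5, were all above 0 in each peritoneal library. They summed to 61142 and 37943 in SPM, to 100183 and 52423 in LPM and to at most 382.4 in the other 6 libraries. The 6 SPM markers summed to 29111 and 16631 in SPM, 3392 and 2148 in LPM and 210.7 to 3722 in the other 6 libraries. The 7 B cell markers were above 0 in all 4 peritoneal libraries and summed to 9594 and 6237 in SPM, 625 and 1300 in LPM and 79.6 to 2240 in the other 6 libraries. Mast cell markers summed to 1016 and 841.5 in LPM, 665.2 and 449.7 in SPM and 18.6 to 263.2 in the other 6 libraries. Mesothelial markers summed to 4.00 to 10.8 in the peritoneal libraries and to 1956 and 2816 in TGEM. The part of other cells in the shared peaks or in the expression values was not tested, and in bulk samples fewer cells of a type cannot be told apart from less RNA per cell. Depth ran from 2886220 mapped reads in SPM replicate 1 to 27003104 in TGEM replicate 1.

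Of the 3749 genes nearest to a shared peak that were tested, 1023 were higher in LPM and SPM, or 27.3%, against 13.3% of all genes tested. Lower were 237, or 6.32%, against 8.87% of all genes. The median log2 fold was 0.45 near shared peaks and 0.05 over all genes. Among genes nearest to entries of LPM alone 24.6% were higher, and among genes nearest to entries in all 5 populations 15.9%. Presence of peaks and expression were measured in separate libraries, but from the same populations, and genes share peaks and regulation, so no test over the genes was made. Without LPM replicate 1, LPM replicate 2 or SPM replicate 1 the higher genes were 1697, 1624 and 1633 of all genes and 798, 765 and 756 near shared peaks, and the lower genes near shared peaks were 139, 140 and 147. Quantile normalization gave 2265 higher and 2352 lower among all genes in place of 2568 and 1713, with a median of -0.11.

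The share rose with the number of shared peaks. Of genes nearest to 1, 2, and 3 or more shared peaks, 20.6%, 35.2% and 53.4% were higher, and 7.17%, 5.01% and 3.47% were lower. With 5 or more, 85 of 124 genes were higher and 1 was lower. Genes with 3 or more shared peaks had a median of 14 LPM entries of all kinds, and genes with 1 had 4. Genes with 10 or more LPM entries and no shared peak were higher in 20.3% of cases and lower in 17.7%. Genes nearest to 5 or more entries in all 5 populations were higher in 26.3% and lower in 14.9%. The distance of the peak moved the share less: 23.6% were higher with a shared peak within 1 kb, 28.6% within 10 kb and 28.1% within 100 kb. Genes with a shared peak in H3K27ac of LPM were higher in 36.6% of cases, and those without in 22.2%. Where the mark was in LPM and SPM and none of the other 3 populations, 214 of 407 were higher, or 52.6%. The share over all genes tested was 13.3%. Calls near LPM entries of other kinds with these patterns of the mark were not counted, so these shares are not particular to shared peaks.

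**Figure D4:**
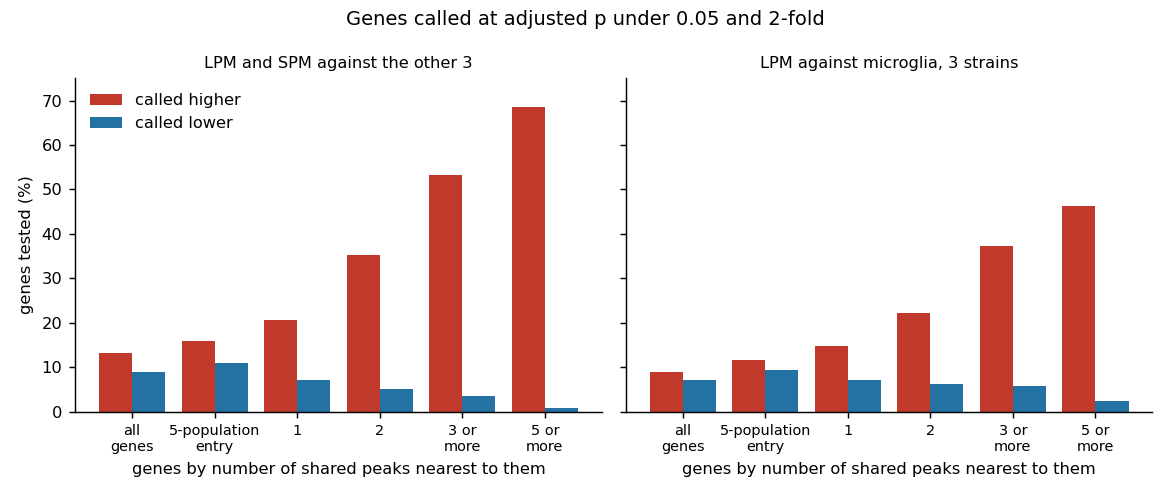
Share of genes tested (y axis, percent) called higher (red) or lower (blue) in LPM and SPM against the other 3 populations (left) and in LPM against microglia over 3 strains (right). Genes are grouped by shared peaks nearest to them (x axis), beside all genes and genes nearest to an entry in all 5 populations. On the left the share called higher goes from 20.6% with 1 shared peak to 68.5% with 5 or more.

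Between LPM and SPM no gene nearest to a peak was called by limma. It called 0 of 3749 genes higher and 0 lower in LPM than SPM, against 0% higher and 0.0259% lower of all genes, the latter 5 genes. An unadjusted p under 0.05 was found for 179 of the 3749 and for 793 of all 19312 genes. edgeR on recovered reads called 0 higher and 16 lower near the peaks, and DESeq2 5 higher and 43 lower, so the count of 0 belongs to the limma fit.

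Ltbp1, which encodes a protein that holds latent TGF-beta in the matrix, had 15 shared peaks among 45 LPM entries. It stood at 19623 and 31473 scaled reads in LPM and at 11205 and 12091 in SPM. In the other 6 libraries it had a lowest value of 0, a median of 20.0 and a highest of 79.5, and the groups did not overlap. The log2 fold was 10.45 ± 0.83 (SE, limma adjusted p = 2.51e-05, 10 libraries). Its nearest shared peak lay 3.54 kb upstream of one of its listed starts and inside the span of a longer listed transcript, at chr17:75175183-75175361, with H3K4me2 in LPM and with PU.1 in NOD/ShiLtJ and in the ATRA culture.

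Rarb, the nuclear receptor RARβ that is itself induced by retinoic acid in many cells, had 14 of its 26 LPM entries among the shared peaks. It stood at 1315 and 2348 in LPM, 1185 and 1414 in SPM and between 17.2 and 101.8, with a median of 49.1, in the other 6 libraries. The groups did not overlap, and the log2 fold was 4.94 ± 0.22 (SE, limma adjusted p = 1.55e-06). The shared peak 1.06 kb inside the gene, at chr14:16574327-16574505, was in LPM of all 3 strains and in H3K27ac of LPM and SPM. Efnb2 stood at 3223 and 3852 in LPM, 2325 and 2494 in SPM and 5.02 to 178.0, median 70.1, elsewhere, without overlap. Its log2 fold was 6.15 ± 0.26 (SE, limma adjusted p = 1.23e-06).

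Many shared peaks did not mean high expression. Cdh6, an adhesion molecule of the cadherin family, had 14 shared peaks among its 19 LPM entries. It stood at 1.33 and 7.67 in LPM, 10.4 and 8.14 in SPM and 0.717 to 7.45 elsewhere, and it was not called. Plxdc2, which encodes a membrane receptor, stood at 17925 and 45839 in LPM and 11635 and 24803 in SPM, and its highest value elsewhere, 36386, was in microglia, so the groups overlapped. Of the 10 genes with most shared peaks, 5 were called with groups that did not overlap: Ltbp1, Rarb, Ryr2, Mctp2 and Efnb2. Plxdc2, Spred2 and Pde10a were called with groups that overlapped, and Cdh6 and 2010106C02Rik were not called. Among all genes tested 13.3% were called higher and 8.87% lower. The share of all genes that were called with groups that did not overlap was not counted.

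The list of LPM identity genes, chosen with earlier results of these data known, had 34 genes tested, and 33 were higher, against 13.3% of all genes tested. Of the 34 symbols 32 had a shared peak within 100 kb of a start, and F10 and Lrg1 had the nearest at 387.6 and 243.9 kb. The share of all genes with a shared peak so near was not counted. For 28 of the tested genes a shared peak had the gene as its nearest, as for 3749 of all 19312 genes tested. Of these 28 genes, 27 were higher, with a median log2 fold of 7.38, while Cd36 was not called. Over all genes nearest to a shared peak 27.3% were higher. Timd4, a receptor for phosphatidylserine on dying cells, stood at 4732 and 4987 in LPM and 3309 and 3268 in SPM. In the other 6 libraries it lay between 0.932 and 9.32, so the groups did not overlap, and the log2 fold was 9.90 ± 0.38 (SE, limma adjusted p = 8.52e-07). Gata6 had 5 shared peaks within 100 kb and stood at 2185 and 2086 in LPM, 1327 and 1005 in SPM and 0 to 131.6 elsewhere. The peaks nearest to Ptgis, Serpinb2 and C4b lay in H3K27ac of both LPM and SPM, that of C4b also in a BMDM region, and were listed in LPM of all 3 strains. Ptgis encodes prostacyclin synthase, and its peak lay 0.625 kb upstream at chr2:167241073-167241251 with a score of 68.6. The strongest among the peaks nearest to these genes, at chr11:106384778-106384956, scored 103.6 and lay 2.23 kb upstream of Icam2, which encodes an adhesion ligand of leukocyte integrins.

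Rises and falls among genes nearest to shared peaks were ranked only for called genes with groups that did not overlap. The 10 largest rises so chosen were of Ltbp1, Timd4, Selp, F5, C4b, Vmn2r26, Wnt2, Fn1, Serpinb2 and Gbp2b, with log2 folds of 10.45 to 8.75. Selp, the adhesion receptor P-selectin, stood at 8167 and 4728 in LPM, 4948 and 2744 in SPM and 0 to 59.6 elsewhere. All 4 LPM entries nearest to Selp were shared peaks. C4b, complement component 4, can share reads with C4a, and Vmn2r26 and Gbp2b also have close copies, so their values are uncertain. The 5 largest falls were of Lhfpl2, Basp1, Il7r, Prdm1 and Syngr1, with log2 folds of -7.34 to -4.84, and their nearest shared peaks were 105, 186, 99.9, 142 and 5.74 kb away. Lhfpl2 stood at 50.7 and 41.9 in LPM, 31.2 and 27.1 in SPM and 3450 to 14565, median 5231, elsewhere, without overlap. Prdm1, which encodes the repressor Blimp-1, stood at 9.35 and 1.53 in LPM, 45.0 and 12.5 in SPM and 198.6 to 676.3 elsewhere.

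**Figure D5:**
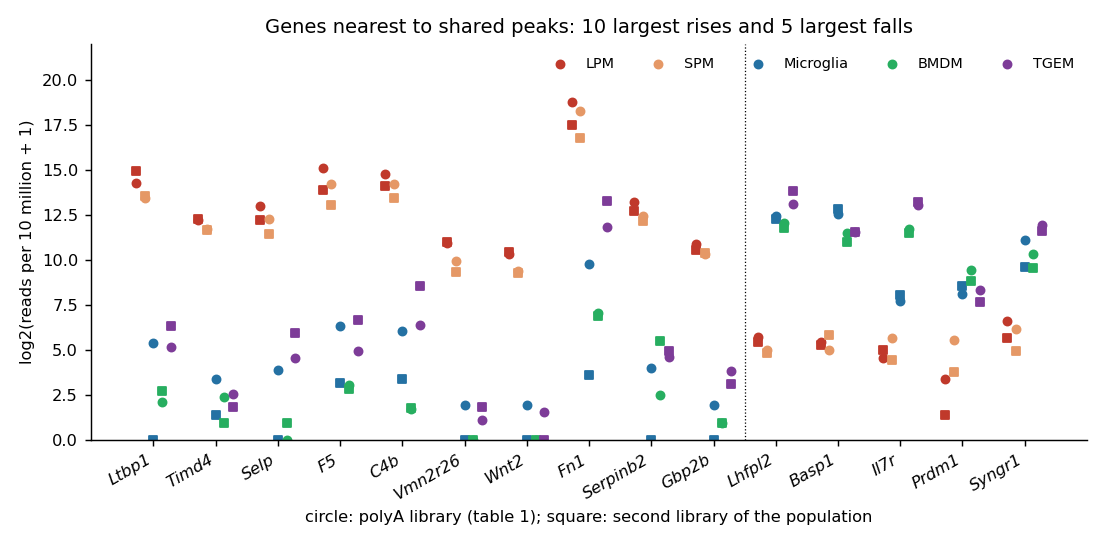
Expression of the 10 largest rises and 5 largest falls among genes nearest to shared peaks, as log2(scaled reads + 1) on the y axis, for each gene on the x axis. Each point is 1 of 10 C57BL6/J libraries, coloured by population, with circles for the first and squares for the second deposited table. LPM and SPM points lie above all others left of the dotted line and below all others right of it, which the choice of genes required.

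Genes of the other lists that had a shared peak moved in both directions, where 13.3% of all genes were higher and 8.87% lower. Of 9 adhesion genes nearest to a shared peak 8 were higher and 0 lower, with a median log2 fold of 3.30, while the whole list had 9 higher and 3 lower of 15 tested. Itga6, the laminin-binding integrin α6, had 4 shared peaks and stood at 30900 and 21715 in LPM, 19035 and 13482 in SPM and 1018 to 3547 elsewhere. Of 6 complement genes 5 were higher, among them the alternative pathway factor Cfb at 4.61 on the log2 scale, and the anaphylatoxin receptor gene C3ar1 was lower at -1.51. The whole complement list had 8 higher and 2 lower of 13. Of 7 genes of the SPM and dendritic list 6 were higher, among them Cd209d at the low values given above, and Itgax, the integrin CD11c, was lower at -4.32. That list had 13 higher and 2 lower of 20. Irf4, a factor of dendritic cells and monocyte-derived macrophages, stood at 436.7 and 438.9 in LPM, 1001 and 817.4 in SPM and 30.0 to 131.6 elsewhere, beside the B cell markers of the SPM libraries, whose part was not tested. Of 7 retinoic acid genes 4 were higher and Tgm2, transglutaminase 2, was lower at -3.30, from a list with 7 higher and 3 lower of 17. Of 4 coagulation genes 3 were higher and 0 lower, and the whole list had 8 higher and 4 lower of 15. Of 6 genes of apoptotic cell uptake 3 were higher and 0 lower, while the whole list had 3 higher and 6 lower of 15. Of 12 transcription factors 4 were higher, Gata6, Rarb, Klf2 and Cebpb, and Maf and Pparg were lower, from a list with 7 higher and 5 lower of 20.

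Over 3 strains, LPM were compared with microglia in 6 libraries with the strain as a block. Of 3627 genes nearest to a shared peak 682 were higher in LPM, or 18.8%, against 8.95% of all genes, and 248 were lower, or 6.84% against 7.09%. The C57BL6/J libraries of this fit also entered the comparison above. Where a shared peak was listed in LPM of both NOD/ShiLtJ and SPRET/EiJ, 145 of 340 genes were higher, or 42.6%. Efnb2 stood at 3852, 3928 and 1085 in LPM of C57BL6/J, NOD/ShiLtJ and SPRET/EiJ and at 178.0, 159.6 and 28.4 in microglia, without overlap. Ryr2, a calcium release channel, was not called: its LPM values of 3721, 31654 and 83.1 overlapped the microglial range of 6.24 to 325.3. Only 2 residual degrees of freedom were left, and each of the 6 libraries mattered: left out 1 at a time, the 682 genes became 106 to 592, with 106 without C57BL6/J LPM and 592 without SPRET/EiJ microglia. Without the filter on low values 10 of all genes and 6 near shared peaks were higher.

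With ATRA against DMSO in cultured LPM, 131 of 3187 genes nearest to a shared peak were higher, or 4.11%, against 1.93% of all genes, and 13 were lower, or 0.408% against 0.35%. Genes with a shared peak listed in the ATRA culture were higher in 34 of 585 cases, or 5.81%, and those without in 97 of 2602, or 3.73%. Of the 28 LPM identity genes nearest to a shared peak 15 were higher, and of the whole list 19 of 34 tested were higher. Cd5l, a secreted scavenger receptor protein, had its nearest shared peak listed in the ATRA culture. It stood at 1205 with ATRA and 88.8 with DMSO in IL-34, and at 1421 and 65.0 in M-CSF, a log2 fold of 4.09. Selp stood at 883.6 and 27.4 in IL-34 and 314.2 and 81.2 in M-CSF, and Wnt2 at 198.4 and 3.92, and 134.6 and 26.8. Tgm2, lower in LPM and SPM than in the other populations, stood at 7760 and 1252 in IL-34 and 5908 and 1171 in M-CSF with and without ATRA. Rarb, with 14 shared peaks, was not called, at 61.1 and 41.8 in IL-34 and 57.1 and 65.8 in M-CSF. The fit took 1 variance for all genes along the trend, and the 131 genes became 0 without either DMSO library, 4 without the ATRA culture in IL-34 and 82 without that in M-CSF. They became 0 without the filter on low values and 63 without the ligand as a block.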

How the data were processed

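Members and gene lists were chosen with earlier results of these data known. PU.1 and histone lists were deposited per sample with coordinates of mm10 and a score per entry, which is the authors' own and was used to rank entries within a list. Expression was deposited as a signal per transcript that the authors scaled to 10000000 mapped reads, per the file headers. The submitters' processing notes name Bowtie, STAR, HOMER and mm10. Their versions and a strand setting were not given in the sources used, so antisense and overlapping genes cannot be told apart. 4 value columns were not matched to a sample and were not used. A further library of untreated C57BL6/J microglia and the libraries of cultured microglia had no matched column and entered no fit.

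The transcript with the longest span in the polyA table was kept per symbol (24063 symbols from 33072 rows). Values were whole multiples of 1 read (100% within a tolerance of 0.1), and reads were recovered from them for the count tests. The main test was limma 3.58.1 on log2(value + 1), with the trend option, on genes that reached 1 in some library. Calls needed an adjusted p (Benjamini-Hochberg) under 0.05 and a fold of 2 or more. Folds on this scale understate changes of low genes. The model had population and deposited table as terms. Per their titles the first libraries were polyA RNA, and the second of LPM, SPM and microglia were ribosomal RNA-depleted. The titles of the second BMDM and TGEM libraries do not name their kind, so the block stands for the deposited table. Strain was the block over strains and ligand over cultures (8 libraries, 4 additives), and X and Y genes without reads in the strain table were left out. The labels do not say whether replicates came from separate animals, so p-values measure the spread between these libraries, which may be technical. edgeR 4.0.16 and DESeq2 1.42.0 on recovered reads, other pseudocounts, no filter, quantile normalization, no block and leaving out each library were alternatives. The scripts were tested on simulated data. Distances run from the centre of an entry to the nearest start listed in the expression table. No genome was used here, so motifs were searched only in 300-base RefSeq promoter windows. The 239 shared peaks on chromosome 18 were left out of the count of peaks wholly inside a window and of the genes ranked from it. Named genes were the 15 peaks with the highest score, the 10 genes with most peaks, the 10 largest rises and 5 largest falls with groups that do not overlap, the listed genes nearest to a peak, and the peak nearest to each LPM identity gene within 100 kb. The sample labelled PU.1 in BMDM names another antibody in its labels, though its entries have the fixed width of a PU.1 list, and it was read as PU.1.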

Additional observations from a re-analysis of the deposited data

How the results depend on the processing

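With LPM and SPM entries at or above the median score of their list, the number of members was 1087. Within 500 and 1000 bp, H3K27ac covered 32.4% and 35.5% of shared peaks in LPM and 34.6% and 37.3% in SPM, and H3K4me2 48.3% and 51.6% in LPM and 19.3% and 22.9% in SPM. An overlap of at least 0.5 of the entry left 11.5% in SPRET/EiJ LPM. From the weakest to the strongest of the 5 score groups, recurrence was 9.62%, 22.3%, 40.6%, 64.2% and 89.4% in NOD/ShiLtJ, 4.81%, 8.97%, 15.6%, 27.1% and 41.9% in SPRET/EiJ, 5.43%, 11.0%, 17.3%, 32.3% and 54.5% in the ATRA culture and 5.34%, 10.7%, 14.8%, 24.5% and 40.4% in the TGFB1 and vehicle list.

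Genes higher and lower near a shared peak within 10 kb numbered 457 and 92. Leaving out 1 library gave 1624 to 2668 higher and 939 to 1918 lower among all genes and 756 to 1065 and 139 to 245 near shared peaks; without LPM replicate 1, LPM replicate 2 or SPM replicate 1 the lower genes near peaks were 139, 140 and 147. Of the 1023 genes higher near shared peaks, 749 to 990 were shared with each alternative, and none had a negative fold. Without the replicate block, 990 of the 1023 were called.

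LPM against SPM gave 0 lower genes in place of 5 with no replicate block, no filter, a pseudocount of 0.1, quantile normalization or any library left out, 9 with a pseudocount of 5, 69 with edgeR and 181 with DESeq2, which also called 7 higher. Near shared peaks these were 3 lower with a pseudocount of 5, 16 with edgeR and 43 with DESeq2, which called 5 higher; these settings were added after seeing the data. Over 3 strains no filter left 10 higher and 7 lower, and 6 and 0 near peaks, and leaving out 1 library gave 177 to 1244 higher and 133 to 903 lower, and 106 to 592 and 28 to 190 near peaks. For ATRA, no replicate block gave 134 higher and 21 lower, and 63 and 2 near peaks; no filter gave 8 and 2, and 0 and 1; leaving out 1 library gave 0 to 191 and 0 to 19, and 0 to 82 and 0 to 5. The cause was not tested. Of 3935 values of named genes under alternatives, 334 lost their call and 22 gained one. Motifs in another window were not run. Library depth limits low genes most in SPM replicate 1.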
